A study of Mus musculus with 5 samples.

Results

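The 39 Hox genes of the mouse lie in 4 clusters, Hoxa on chromosome 6, Hoxb on chromosome 11, Hoxc on chromosome 15 and Hoxd on chromosome 2, in the gene table of assembly GRCm38.p6. They were followed here in embryonic stem (ES) cells that overexpressed Satb1. Members were the genes named Hoxa, Hoxb, Hoxc or Hoxd with a number from 1 to 13 in the annotation of the arrays. A probe set had to carry that symbol alone. This gave 37 genes of 19938 with a single name, 10 in cluster Hoxa and 9 in each of the other clusters, each with 1 probe set. Hoxb8 was named only by a probe set that it shares with Hoxb7, so it is not analysed here. That probe set had the same log2 value, 3.09, on all 5 arrays.

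RNA of mouse ES cells carrying a tetO-Satb1 transgene was measured on 5 arrays. In the +DOX group, with 3 arrays, doxycycline had been given for 24 h to switch the transgene on, and in the no DOX group, with 2 arrays, it had not. Both groups carried the transgene, grew in medium with serum and LIF, the cytokine that holds ES cells undifferentiated, and gave RNA 48 h after passaging. One protocol text places the cells on irradiated feeder cells that were depleted by settling before extraction, whereas the design text names LIF alone. The labels do not explain the number in each title, so it is not known whether arrays of a group were separate cultures or clones. Cells without the transgene given doxycycline are not analysed here. A difference is therefore one between doxycycline-treated and untreated cells, and the p-values below reflect variation among arrays alone, which could be technical. The labels call the no DOX cells controls.

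Hox genes encode homeodomain transcription factors that give cells their position along the head-to-tail axis. Genes at the low-numbered end of a cluster act in the hindbrain and neck, and those at the high-numbered end in the lower trunk, limbs and tail. Genes that share a number across clusters, a paralogue group, descend from 1 ancestral gene. In undifferentiated ES cells the clusters are known as silent regions covered by Polycomb proteins and poised for later use. SATB1, the protein made from the transgene, binds AT-rich DNA and shapes chromatin in developing T lymphocytes. The comparison asks whether the clusters respond within a day of its induction.

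No Hox gene changed in a way that passed a test on all arrays. Of the 37 genes, 0 passed limma's test with an adjusted p under 0.05, where 0.015% of all genes passed in either direction, and 0 had an unadjusted p under 0.05, where 1.55% of all genes did. The smallest unadjusted p was 0.192, for Hoxd9, and the lowest adjusted p of any member was 0.77. The induction itself was plain: Satb1 had log2 values of 8.61, 8.79 and 8.68 in +DOX cells, against 4.95 and 5.34 in no DOX cells, an 11.7-fold difference. Its adjusted p was 0.229 in limma over all genes and 0.0038 with the shared spread described below.

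The arrays were alike, with Pearson's r between 0.9972 and 0.9979 across genes, which are not independent replicates. All 12 ES cell markers, Pou5f1, Sox2 and Nanog among them, were measured, at mean log2 values from 6.33 to 11.2. In +DOX cells 3 had a higher mean, 8 a lower mean and 1 the same. Only in Tdgf1 did all +DOX values lie below both no DOX values, as in 3.08% of all genes. Its log2 difference was -0.21 (limma unadjusted p = 0.0065, adjusted p = 0.77). Of 24 feeder fibroblast markers, 23 were measured. Their mean was 5.45, 5.46 and 5.47 on the +DOX arrays, against 5.42 and 5.44 on the no DOX arrays. Of them 14 were higher, 6 lower and 3 equal in mean, and mean levels ran from 2.43 for Lum to 8.46 for Fn1. Fibroblasts use Hox genes according to their place in the body, so these values stand beside every Hox value below. All +DOX feeder means lay above both no DOX feeder means. The fit with the feeder mean in the closing section therefore cannot separate feeder content from doxycycline. The part of feeder cells in the Hox values was not tested. In a bulk sample, fewer cells of a type and less RNA per cell cannot be told apart.

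Hox genes lay low on the scale of the arrays. Their mean log2 values ran from 3.06 for Hoxc11 to 5.51 for Hoxb9, with a median of 4.33, while the median of all genes was 5.06 and their quartiles were 4.09 and 6.29. The deposited table holds no detection calls. Genes of odorant and vomeronasal receptors, which ES cells are not known to use, served as a yardstick: the 1194 measured had a median of 3.20, and 95% of them lay below 4.86. Of the 37 Hox genes, 35 lay above that median and 6 above that upper bound (16.2%, against 55.4% of all genes). The 6 were Hoxb9, Hoxb3, Hoxa4, Hoxd10, Hoxb1 and Hoxd3, and the first 4 of these also lay above the median of all genes. Just below the bound was Hoxc9 at 4.83, and Hoxd3, at 4.89, was just above it. Probe sets differ in how strongly they bind, so these positions describe the signal of each probe set and do not rank transcripts by amount.

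**Figure D1:**
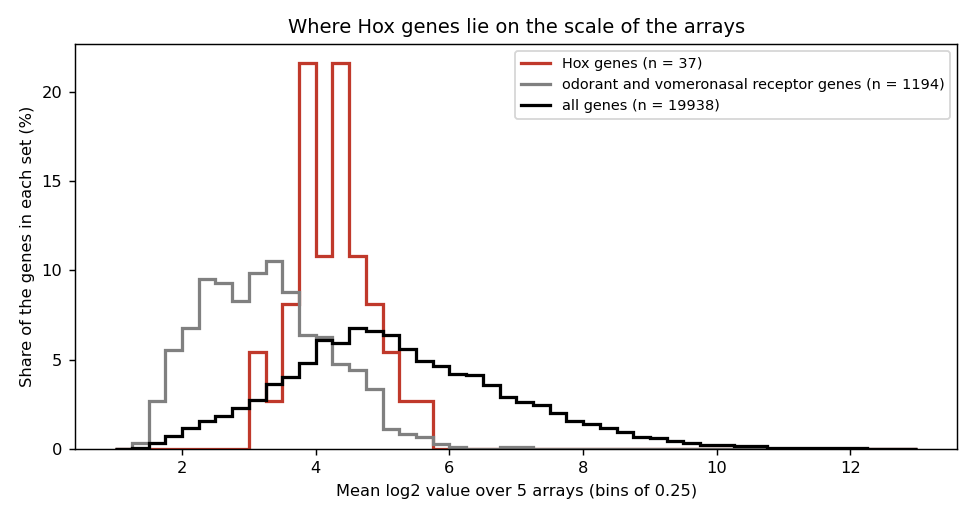
Share of genes, in percent of each set, by mean log2 value over the 5 arrays in bins of 0.25, for 37 Hox genes (red), 1194 odorant and vomeronasal receptor genes (grey) and all 19938 genes (black). Hox genes run from 3.06 to 5.51, and their median of 4.33 lies between that of the receptor genes, 3.20, and that of all genes, 5.06.

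Many deposited values of a Hox gene were exactly equal between arrays. Of the 37 genes, 8 had the same value on all 5 arrays (21.6%, against 15.1% of all genes), 7 had 2 distinct values, 12 had 3, 7 had 4, and only Hoxc6, Hoxd9 and Hoxd12 had 5. The 8 constant genes were Hoxa6, Hoxa9, Hoxa11, Hoxb2, Hoxb3, Hoxc4, Hoxc8 and Hoxd11. They lay in all 4 clusters and ranged from a log2 value of 3.79 for Hoxa6 to 5.34 for Hoxb3. Among 10391 other genes whose level fell within the Hox range, 18.4% were constant. The 3 +DOX values were identical in 12 Hox genes (32.4%, against 28.9% of all genes) and both no DOX values in 16 (43.2%, against 43.0%).

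The same numbers also recurred in different genes. The 185 member values held 94 distinct numbers, and 6 of these numbers occurred in more than 1 Hox gene. The log2 value 4.54 was shared exactly by Hoxb7, Hoxd11 and Hoxd13, and 4.33 by Hoxc4 and Hoxd4. Hoxa9 and Hoxb6 shared 4.47, Hoxa5 and Hoxd1 shared 4.01, Hoxa4 and Hoxb3 shared 5.34, and Hoxc5 and Hoxc13 shared 3.88. Of the member values, 53.0% were found in some other gene on any array, as were 43.7% of the values of all genes. A difference of 0 therefore means that the summary gave 1 number, not that the RNA was measured as equal to that precision. Where only 1 array departs, the whole difference rests on that array.

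**Figure D2:**
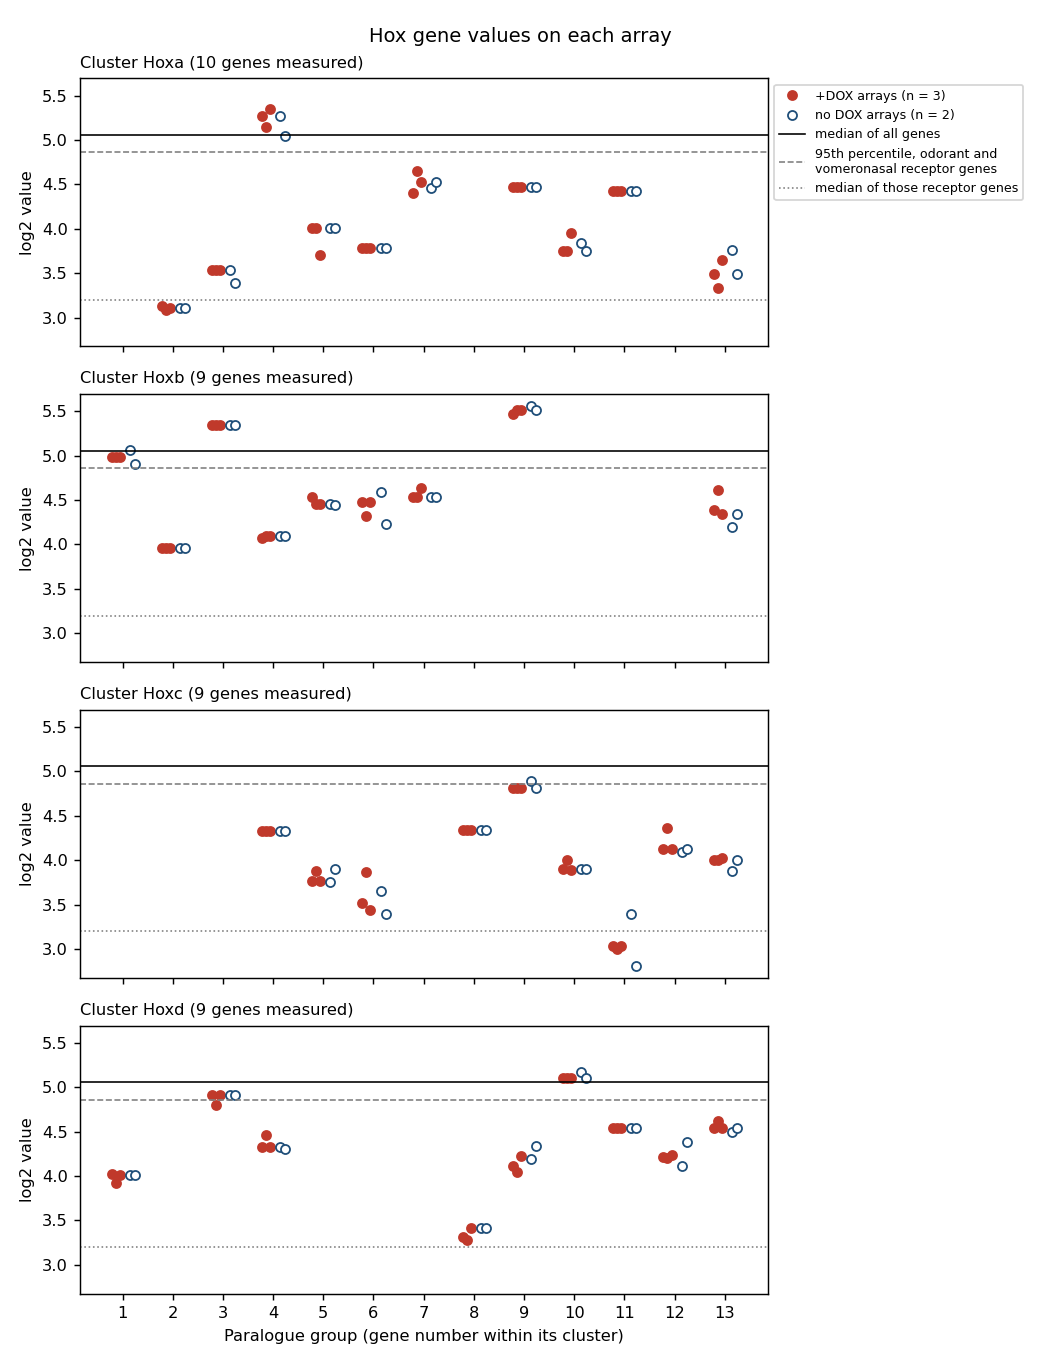
Log2 value of each Hox gene on each array, by cluster (panels) and paralogue group (horizontal axis), with +DOX arrays as filled red points and no DOX arrays as open blue points. Lines mark the median of all genes (5.06), the 95th percentile of receptor genes (4.86) and their median (3.20). In no gene do all +DOX points lie above or below both no DOX points.

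Cluster Hoxa held 10 genes with a median level of 3.88, of which 4 had a higher mean in +DOX cells, 3 a lower mean and 3 the same. Hoxa4, which helps to pattern the neck vertebrae, had the highest values of the cluster. It was at 5.27, 5.14 and 5.34 in +DOX cells, against 5.27 and 5.04 in no DOX cells, a log2 difference of 0.10 ± 0.11 (standard error). The first array of each group gave 1 and the same number, so the groups overlapped. Hoxa7, a trunk gene, was at 4.40, 4.65 and 4.52 in +DOX cells, against 4.46 and 4.52 in no DOX cells, and Hoxa9 was constant at 4.47.

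Hoxa13, at the far end of the cluster, is needed for digits and the urogenital tract, and it had the lowest difference of all Hox genes. Its values were 3.49, 3.33 and 3.65 in +DOX cells, against 3.76 and 3.49 in no DOX cells, a log2 difference of -0.14 ± 0.15 (standard error). The +DOX values spread by more than the difference between the means. Hoxa5, a gene of lung and shoulder development, was at 4.01 on 4 arrays and at 3.70 on +DOX array 3, so its difference of -0.10 came from that array. Hoxa3, needed for the thymus and parathyroids, was at 3.53 on all +DOX arrays, against 3.53 and 3.39 in no DOX cells, and its difference of 0.07 came from no DOX array 2. Hoxa2, which gives the second pharyngeal arch its identity, stayed between 3.09 and 3.13 on all arrays, and Hoxa10, a gene of the lumbar region and uterus, had a difference of 0.018.

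Cluster Hoxb held 9 genes with a median level of 4.47, of which 4 had a higher mean in +DOX cells, 3 a lower mean and 2 the same. Hoxb9, a gene of the thoracic region, was at 5.47, 5.52 and 5.52 in +DOX cells, against 5.56 and 5.52 in no DOX cells. Hoxb3, a hindbrain gene, was constant at 5.34. Hoxb1, which specifies a segment of the hindbrain and responds early to retinoic acid, was at 4.98 on all 3 +DOX arrays, against 5.06 and 4.91 in no DOX cells. The no DOX values lay on either side of the +DOX value, and the difference of means was -0.0039.

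Hoxb13, which stands apart at the end of its cluster and limits the length of the tail, had the largest difference of all Hox genes. It was at 4.39, 4.61 and 4.35 in +DOX cells, against 4.20 and 4.35 in no DOX cells. The means were 4.45 ± 0.14 (SD, n = 3) and 4.27 ± 0.10 (SD, n = 2), a log2 difference of 0.18 ± 0.11 (standard error; limma adjusted p = 0.77). The lowest +DOX value equalled the highest no DOX value exactly, so the groups touched. Hoxb2 was constant at 3.96, and Hoxb4, Hoxb5, Hoxb6 and Hoxb7 differed by -0.0054 to 0.031.

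Cluster Hoxc held 9 genes, numbered from 4, with a median level of 3.98, of which 4 had a higher mean in +DOX cells, 3 a lower mean and 2 the same. Hoxc9, which separates thoracic from limb motor neurons, was at 4.82 on all +DOX arrays, against 4.90 and 4.82 in no DOX cells. Hoxc8 and Hoxc4, genes of the thorax and neck, were constant at 4.34 and 4.33. Hoxc11, a gene of the lumbosacral region, showed the widest spread of any Hox gene between no DOX arrays, 3.40 and 2.81, around +DOX values of 3.04, 3.01 and 3.04. Its mean was 3.03 ± 0.02 in +DOX cells (SD, n = 3) and 3.11 ± 0.42 in no DOX cells (SD, n = 2).

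Of the other Hoxc genes, Hoxc6, a gene of the thoracic region and forelimb, was at 3.52, 3.87 and 3.44 in +DOX cells, against 3.65 and 3.39 in no DOX cells. Hoxc12 was at 4.13, 4.36 and 4.13 in +DOX cells, against 4.09 and 4.13 in no DOX cells, so that +DOX array 2 carried most of its difference of 0.096. Hoxc13, a regulator of hair keratins, was at 4.003, 4.003 and 4.030 in +DOX cells, against 3.883 and 4.003 in no DOX cells. In all 3 genes the values of the groups overlapped or touched. Hoxc5 and Hoxc10 had differences of -0.022 and 0.033.

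Cluster Hoxd held 9 genes with a median level of 4.35, of which 2 had a higher mean in +DOX cells, 6 a lower mean and 1 the same. Hoxd10, a gene of lumbar motor neurons, was at 5.11 on all +DOX arrays, against 5.17 and 5.11 in no DOX cells. Hoxd3, which patterns the upper neck, was at 4.92, 4.79 and 4.92 in +DOX cells, against 4.92 and 4.92 in no DOX cells. Hoxd13, the gene of digit formation in this cluster, was at 4.54, 4.62 and 4.54 in +DOX cells, against 4.50 and 4.54 in no DOX cells. Each of these genes departed from a common value on 1 or 2 arrays only.

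Hoxd9, a gene of limb and lumbar patterning, had the smallest p of all Hox genes and no tied values. It was at 4.11, 4.05 and 4.23 in +DOX cells, against 4.19 and 4.34 in no DOX cells. The means were 4.13 ± 0.09 (SD, n = 3) and 4.26 ± 0.11 (SD, n = 2), a log2 difference of -0.13 ± 0.08 (standard error; limma adjusted p = 0.77), and +DOX array 3 lay above no DOX array 1. Hoxd8, its neighbour in the cluster, was at 3.32, 3.28 and 3.41 in +DOX cells, against 3.41 and 3.41 in no DOX cells. Hoxd11 was constant at 4.54, and Hoxd1, Hoxd4 and Hoxd12 had differences of -0.026, 0.058 and -0.029.

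Across the whole set, 14 genes had a higher mean (37.8%) and 15 a lower mean (40.5%), where 39.6% and 45.3% of all genes did. Among the 10391 other genes whose level fell within the Hox range, 44.0% had a higher mean and 37.5% a lower mean. The median log2 difference was 0 over the Hox genes and 0 over all genes. A difference above 0.1 in size was seen in 4 Hox genes, Hoxb13, Hoxa13, Hoxd9 and Hoxa5, and in 14.2% of all genes. In 0 Hox genes did all +DOX values lie above both no DOX values, as in 1.65% of all genes, and in 0 did they lie below, as in 3.08% of all genes. Of the 10391 other genes within the Hox range of levels, 178 lay above and 128 below in this way. With 5 arrays there are 10 ways to form groups of 3 and 2, so the smallest p of an exact permutation test on a single gene is 0.1, and none was run.

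Members were also ordered by position within the cluster. In groups 1 to 3, the anterior end, 1 of 7 genes had a higher mean and 4 a lower mean, with a median log2 difference of -0.00096. In groups 4 to 8, 7 of 14 were higher and 4 lower, with a median of 0.0073, and in groups 9 to 13, 6 of 16 were higher and 7 lower, with a median of 0. Paralogues of group 9 had differences of 0 for Hoxa9, -0.035 for Hoxb9, -0.038 for Hoxc9 and -0.13 for Hoxd9. Those of group 13 were at -0.14 for Hoxa13, 0.18 for Hoxb13, 0.069 for Hoxc13 and 0.047 for Hoxd13, so the member with the largest and the member with the lowest difference were paralogues. None of these differences passed the test, and differences between positions were not tested.

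Since equal values lower the variation seen within groups, differences were also judged with a spread shared from the 1800 genes with 5 distinct values. With it, 0 of 37 Hox genes passed, where 0.00502% of all genes did, and 0 had an unadjusted p under 0.05, where 1.07% of all genes did. The smallest unadjusted p was 0.135 for Hoxb13. The 95% intervals of all 37 differences held 0. In 26 genes the whole interval lay within 0.25 of 0 on the log2 scale. Over all members the bounds reached -0.49 for Hoxc11 and 0.46 for Hoxc6, that is 1.40-fold lower and 1.37-fold higher. Equal values of a gene still entered its interval as a lack of variation. The intervals of the 8 constant genes were the narrowest, 0.135 on either side of 0. For genes with tied values the intervals may thus be too narrow to exclude a change. On probe sets near the background, a change of the RNA would appear smaller than it is.

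**Figure D3:**
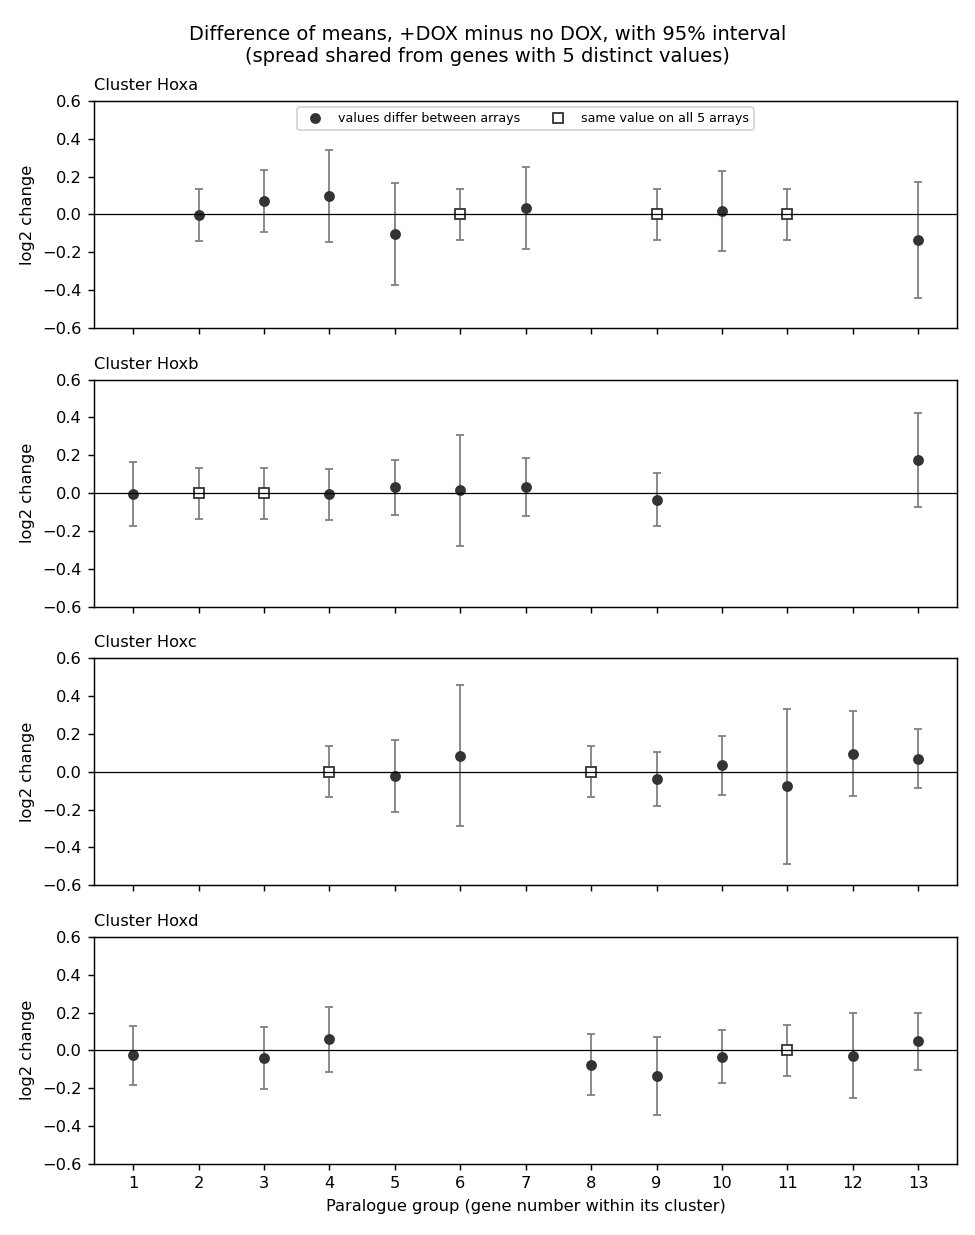
Log2 difference of means, +DOX minus no DOX, for each Hox gene by cluster (panels) and paralogue group (horizontal axis), with 95% intervals from the spread shared by genes with 5 distinct values. Open squares are the 8 genes with the same value on all 5 arrays. Points run from -0.14 (Hoxa13) to 0.18 (Hoxb13), and all 37 intervals hold 0.

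Some Hox genes were called when a single no DOX array was left out. Without no DOX array 1, 3 Hox genes were higher past the threshold, Hoxa3, Hoxb1 and Hoxc11 (3 of 37, where 4.43% of all genes were higher). Without no DOX array 2, 4 were lower, Hoxb1, Hoxc9, Hoxc11 and Hoxd10 (4 of 37, where 4.65% of all genes were lower). Hoxb1 and Hoxc11 were in both sets, with opposite signs. The log2 difference of Hoxb1 was 0.072 without array 1 (limma adjusted p = 0.00037) and -0.080 without array 2 (0.00033). That of Hoxc11 was 0.22 (adjusted p = 0.047) and -0.37 (0.015). In Hoxa3, Hoxb1, Hoxc9 and Hoxd10 the 3 +DOX values were identical, and the remaining no DOX array was assumed to vary as they did.

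**Figure D4:**
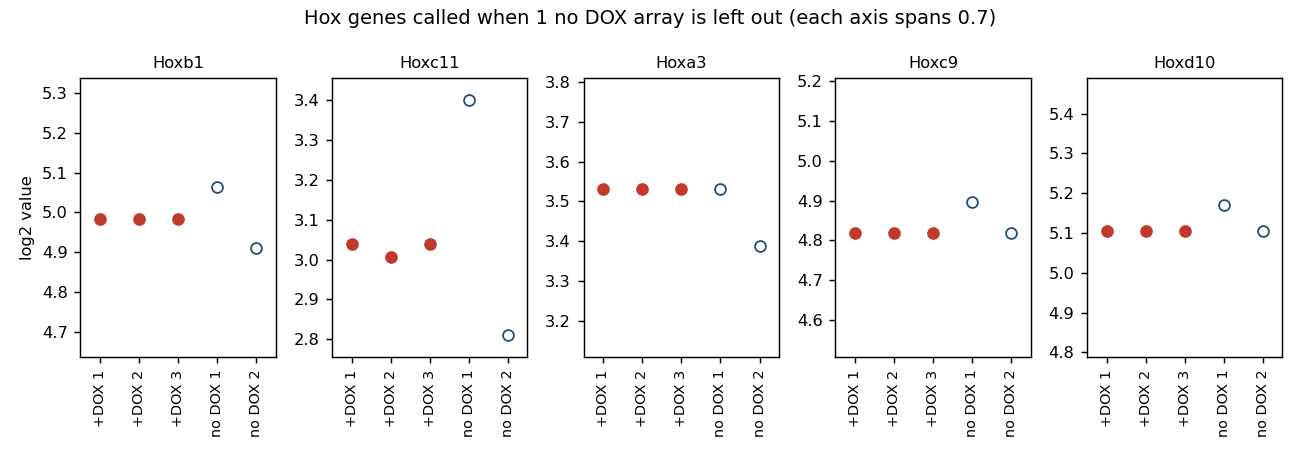
Log2 values on each array of the 5 Hox genes called when 1 no DOX array was left out, with +DOX arrays as filled red points and no DOX arrays as open blue points. In Hoxb1 and Hoxc11 the no DOX arrays lie on either side of the +DOX arrays, and in Hoxa3, Hoxc9 and Hoxd10 1 no DOX array departs from 4 equal values.

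Promoter sequence of paralogue group 9 is shown for the gene with the smallest p, Hoxd9, and for its constant paralogue Hoxa9, because SATB1 favours AT-rich DNA. Both are the 250 bases before the start of the gene in RefSeq, build GRCm38.p6, 5′ to 3′ on the strand of the gene, with the homeodomain core motif TAAT or its complement ATTA in capitals.
Hoxd9, chr2:74697513-74697762, plus strand: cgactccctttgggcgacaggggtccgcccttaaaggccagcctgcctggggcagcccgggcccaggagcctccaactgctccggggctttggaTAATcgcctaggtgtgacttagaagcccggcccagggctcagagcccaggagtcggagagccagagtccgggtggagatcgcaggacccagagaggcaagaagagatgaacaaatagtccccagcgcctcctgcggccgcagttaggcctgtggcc
Hoxa9, chr6:52227371-52227620, minus strand: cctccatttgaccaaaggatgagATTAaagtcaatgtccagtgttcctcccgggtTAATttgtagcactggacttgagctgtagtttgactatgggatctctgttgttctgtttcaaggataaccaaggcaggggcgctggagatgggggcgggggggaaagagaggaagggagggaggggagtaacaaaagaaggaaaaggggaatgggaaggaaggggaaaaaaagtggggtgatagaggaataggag

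The Hoxd9 window was 34.8% A or T and held 13 CpG dinucleotides, and the Hoxa9 window was 50.4% A or T and held 3. RefSeq windows were at hand for 21 of the 37 members, with a median of 42.0% A or T, from 20.0% for Hoxa13 to 59.6% for Hoxd4. The median of 27025 genes was 48.0%. Cluster Hoxb had windows for Hoxb1 and Hoxb4 only, and cluster Hoxc for Hoxc4 only. The Hox windows thus describe mainly clusters Hoxa and Hoxd. The median CpG count was 12 in the Hox windows and 6 over all genes. TAAT, read on both strands, was present in 15 of 21 Hox windows (71.4%) and in 55.3% of all windows of this length. TGATNNAT, the letters used here for a joint Hox and PBX site, was present in 2 of 21, Hoxa2 and Hoxb1 (9.52%, against 7.91% of all windows). A match is a description of the letters and not a bound site.

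Other transcripts inside the clusters, picked out after their values were seen, showed no call either. Of 10 measured, 5 had a higher mean in +DOX cells, 4 a lower mean and 1 the same, with a median log2 difference of 0.0025. Among them 0 passed the test, where 0.015% of all genes did. The long non-coding RNA gene Haglr of cluster Hoxd was constant at 3.41. Hoxd3os1, a non-coding transcript of the same cluster, was at 4.25, 4.25 and 4.25 in +DOX cells, against 4.21 and 4.25 in no DOX cells. Hoxaas2, a non-coding transcript of cluster Hoxa, was at 4.11, 3.85 and 4.38 in +DOX cells, against 4.11 and 4.11 in no DOX cells.

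The clusters also carry microRNA genes. Of the 6 measured, 5 belong to 2 seed families, miR-10 and miR-196, whose 5p strands are shown because some are known to target Hox messages. Sequences are from RefSeq, build GRCm38.p6, with the seed, bases 2 to 8, in capitals.
mmu-miR-10a-5p, from Mir10a in cluster Hoxb: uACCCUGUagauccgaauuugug
mmu-miR-10b-5p, from Mir10b in cluster Hoxd: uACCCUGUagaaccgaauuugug
mmu-miR-196a-5p, from Mir196a-1 in cluster Hoxb and Mir196a-2 in cluster Hoxc: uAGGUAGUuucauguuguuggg
mmu-miR-196b-5p, from Mir196b in cluster Hoxa: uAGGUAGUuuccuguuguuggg

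The labels describe total RNA, and a probe set of a microRNA gene need not follow the mature strand. For the miR-10 seed family, Mir10a was at 1.94, 1.83 and 1.83 in +DOX cells, against 1.83 and 1.83 in no DOX cells. Mir10b was at 1.81, 1.81 and 1.72 in +DOX cells, against 1.88 and 1.81 in no DOX cells. Both lay below the median of the receptor genes. For the miR-196 seed family, Mir196b was at 4.004 on all +DOX arrays, against 3.869 and 4.004 in no DOX cells. Mir196a-1 was at 2.73 on all +DOX arrays, against 2.73 and 2.62 in no DOX cells, and Mir196a-2 differed by -0.015. The mean levels of Mir196a-1 and Mir196a-2, 2.71 and 2.92, also lay below the receptor median of 3.20. Mir615 in cluster Hoxc, of neither family, had the highest values of the 10 transcripts. It was at 5.81, 5.71 and 5.85 in +DOX cells, against 5.81 and 5.81 in no DOX cells.

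Genes next to the clusters lay higher on the scale, with a median level of 6.67 over the 24 nearest measured coding genes, 3 on each side of each cluster. Of these, 9 had a higher mean in +DOX cells, 14 a lower mean and 1 the same, with a median log2 difference of -0.0054. Among the 24 genes 0 passed the test, where 0.015% of all genes did. Calcoco2, an autophagy receptor gene beside cluster Hoxb, was at 5.80, 5.75 and 5.49 in +DOX cells, against 5.90 and 6.05 in no DOX cells. Its log2 difference of -0.30 ± 0.13 (standard error) did not pass (limma adjusted p = 0.77). Skap1, on the other side of that cluster, was at 3.72 on all +DOX arrays, against 3.81 and 3.75 in no DOX cells. These were the 2 of 24 genes in which all +DOX values lay below both no DOX values, as in 3.08% of all genes. The homeobox genes Evx1 and Evx2, at the ends of clusters Hoxa and Hoxd, had differences of 0.088 and 0.0051.

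Regulators and partners of Hox genes gave 0 calls in any of 6 lists, where 0.015% of all genes were called in either direction. With so few calls over all genes, 0 in a short list does not set it apart. Of 27 measured Polycomb genes, which keep the clusters silent, 7 had a higher mean in +DOX cells, 17 a lower mean and 3 the same, with a median log2 difference of -0.017. Ezh2, the histone methyltransferase of this system, was at 8.86, 8.82 and 8.84 in +DOX cells, against 8.92 and 8.88 in no DOX cells, and all +DOX values lay below both no DOX values (limma adjusted p = 0.77). Rybp, a subunit of the other Polycomb complex, was at 7.04, 7.21 and 7.15 in +DOX cells, against 7.24 and 7.36 in no DOX cells, with no overlap and no call (adjusted p = 0.77). These were the 2 of 27 with all +DOX values below, beside the 3.08% of all genes. Of 18 trithorax and MLL genes, which keep Hox genes active where they are on, 3 were higher, 8 lower and 7 the same in mean, with a median of 0.

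Of 8 TALE cofactors, the PBX, MEIS and PREP proteins that bind DNA beside Hox proteins, 5 had a higher mean in +DOX cells and 3 a lower mean, with a median of 0.014. Meis2 was at 3.88 on all +DOX arrays, against 3.88 and 3.52 in no DOX cells. Of 11 Cdx, ParaHox and related homeobox genes, 4 were higher and 7 lower in mean, with a median of -0.0077. Pdx1, the pancreatic ParaHox gene, was at 4.46, 4.49 and 4.33 in +DOX cells, against 4.33 and 4.12 in no DOX cells.

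Retinoic acid is the classical inducer of Hox genes in ES cells, and of 19 measured genes of its pathway 6 had a higher mean in +DOX cells, 8 a lower mean and 5 the same, with a median of 0. The receptor gene Rarg was at 6.29, 6.30 and 6.29 in +DOX cells, against 6.12 and 6.29 in no DOX cells. Cyp26a1, which breaks retinoic acid down and is itself a target of it, was at 4.31 on all +DOX arrays, against 4.17 and 4.31 in no DOX cells. Of 13 genes of posterior mesoderm and neural tube, where Hox genes first come on in the embryo, 5 were higher, 7 lower and 1 the same, with a median of -0.017. Beside these lists the median over all genes was 0.

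**Figure D5:**
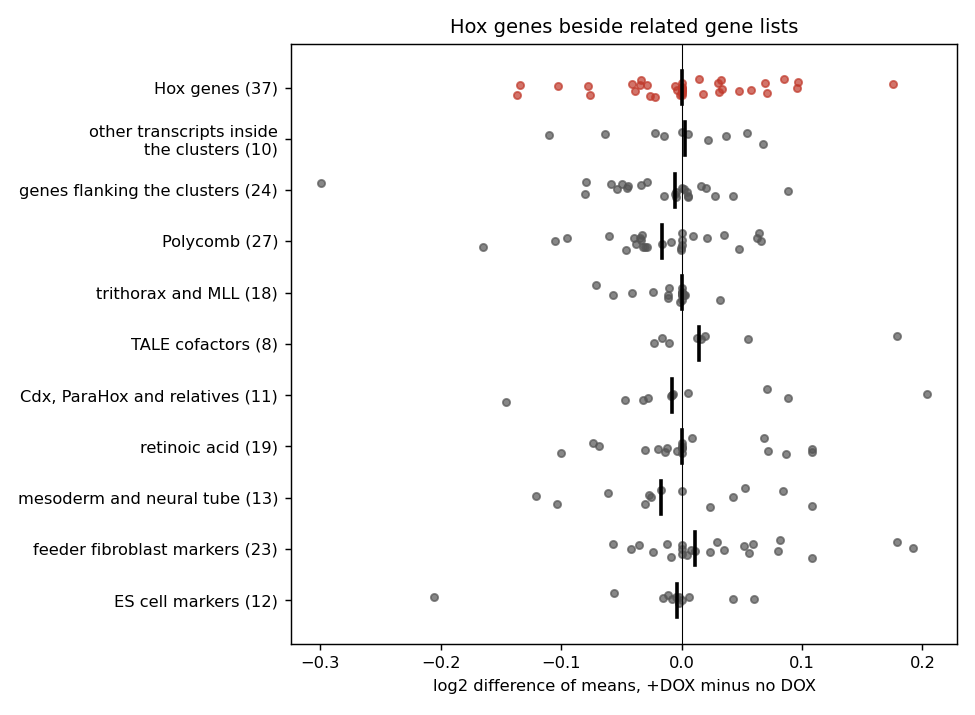
Log2 difference of means, +DOX minus no DOX, of single genes (points, shifted vertically at random for legibility) with the median of each list as a black bar. Hox genes (red) run from -0.14 to 0.18 around a median of 0. In the lists shown 0 genes passed the test, where 0.015% of all genes did.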

How the data were processed

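Values were the authors' deposited log2 values, summarised per probe set with RMA (no version given), per the submitters' processing notes. The deposited table held 35557 probe sets with values between 0.79 and 13.1. Of these, 21789 carried 1 gene symbol in the array's annotation and 1621 several, and 21698 matched the GRCm38.p6 gene table. Where several probe sets shared a symbol (999 of 19938 genes), that of highest mean was used, without a filter on low values. Groups came from the titles. Genes were tested with limma 3.58.1 in R 4.3.3 (lmFit and eBayes, Benjamini-Hochberg adjustment over all genes, threshold 0.05). The number of arrays limits the precision. Equality of values was exact. Limma's prior SD was 0.0050. A second prior, estimated from the 1800 genes whose 5 values all differed (SD 0.086, 2.87 degrees of freedom), gave the shared spread. Both fits were tested on simulated data, where ties like those in the arrays led limma's own prior to make more false calls than the shared spread did. Genes described array by array were the 3 highest members of each cluster, the 6 largest differences in each direction and members called in any fit; up to 4 genes with the smallest p were eligible in each other list. Members, lists and tests were chosen with earlier results of these data known. Alternatives are in the closing section.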

Additional observations from a re-analysis of the deposited data

How the results depend on the processing

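The counts of Hox genes past the threshold stayed at 0 in both directions in 9 alternative fits. Of these, 5 changed the values or genes: the mean of all probe sets, genes above the median level (4 members), centred arrays, a second quantile normalization and untied genes (7 members). The others were trended and robust eBayes, the shared spread, the feeder mean as a covariate and the title number as a block. The block fit gave the same differences as leaving out +DOX array 3, since only that array has number 3. Each Hox gene had 1 probe set, so the mean of all probe sets left its values as they were. Among the 9 fits Satb1 itself passed only with untied genes and the shared spread, so 0 calls in the others carry little weight. At an unadjusted p under 0.05 the counts of Hox genes in both directions were also 0 in the fit reported above. Leaving out each array in turn gave 0 to 3 genes higher and 0 to 4 lower. Without no DOX array 1, Hoxb1 and Hoxc11 turned to 0.072 and 0.22, and without no DOX array 2 they were at -0.080 and -0.37. Genes with all +DOX values above both no DOX values numbered 2 with the second quantile normalization and from 0 to 8 with single arrays left out. Those with all below numbered 1 with centred arrays, 1 with quantile normalization and from 0 to 7 with single arrays left out. The 8 above came without no DOX array 1, and the 7 below without no DOX array 2. There only 1 no DOX value remained, so the +DOX values had to clear that value alone. No share of all genes was counted beside these numbers, so they do not set Hox genes apart. Centring moves each array by its own constant, which parts equal values; the cause of the other changes was not tested. The median difference stayed between -0.017 and 0.034. Of 29 genes with a difference other than 0, 13 changed sign in some of the 9 fits, and none of these passed. The largest such value was 0.63, for Hoxc11 with the feeder covariate. Feeder means on all +DOX arrays lay above both no DOX means, so that fit cannot separate feeder content from doxycycline. Satb1 was at 3.55 and newly passed with untied genes and the shared spread. With the feeder mean as a covariate it was at 2.98 (limma adjusted p = 0.977). Leaving out each array gave 3.35 to 3.75, newly passing without either no DOX array.

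Deviations from the group mean correlated across genes at -0.0063 for number 1 and 0.0063 for number 2. The 2 no DOX deviations of a gene are equal and opposite, so these values are not separate checks. They show no sign of pairing but cannot decide whether the title numbers mark pairs. With the number as a replicate block, 0 Hox genes were higher and 0 lower past the threshold, the median difference was 0 and Satb1 was at 3.56. Only the +DOX group has a number 3, so that array does not enter the difference in this fit.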
